A study of Homo sapiens with 6 samples.

Results

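The genes described here are the writers and readers of RNA 5-methylcytosine (m5C): the methyltransferase genes NSUN2, NSUN3, NSUN4, NSUN5, NSUN6, NSUN7, NOP2 and TRDMT1, and the reader genes ALYREF and YBX1. They were taken by gene symbol, whatever their values, and are 10 of the 58735 genes in the deposited count table. Their transcripts were read from 6 RNA sequencing libraries of LX-2, a human line of hepatic stellate cells, the liver cells that deposit scar matrix after injury. In 3 libraries the cells carried an NSUN2 small interfering RNA (siRNA) and then received the fibrogenic cytokine TGF-β1: the dose was 5 ng/ml, it was added 48 hours after transfection, and RNA was taken 24 hours later. In the other 3 the cells carried the same siRNA and had no TGF-β1. The labels give the genotype of all 6 as wild type and call the replicates biological without naming separate cultures, so p-values measure the spread between these libraries.

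Every library carried the siRNA, and its own effect was not analysed here: the NSUN2 level checks no label, since no library of the comparison lacks the siRNA. The series' design text names NAT10, an RNA acetyltransferase, for the same siRNA, and the sample labels, which name NSUN2, were followed. Totals ran from 25828504 to 30034762 counts per library. The markers of the labelled cell type were mixed. COL1A1, a fibrillar collagen gene of activated stellate cells, had 3776 to 4359 normalised CPM (counts scaled to library size) with TGF-β1 and 1412 to 1424 CPM without, whereas LRAT, the retinol-storage enzyme gene of quiescent stellate cells, had 0 counts in all 6. Of markers of other cell types, ALB, the hepatocyte albumin gene, and PTPRC, the leukocyte surface phosphatase gene, were at 0.128 CPM or less in every library, but some others were not. The 4 hepatocyte markers summed to 21.3 to 23.1 CPM with TGF-β1 and 23.6 to 27.4 CPM without, nearly all of it SERPINA1. The 3 leukocyte markers summed to 2.74 to 5.76 CPM with TGF-β1 and 7.91 to 10.1 CPM without, mostly CD14, which was called lower (log2 fold change -1.18, edgeR adjusted p = 0.0014). The 3 epithelial markers summed to 3.94 to 5.37 CPM with TGF-β1 and 2.69 to 3.45 CPM without, mostly KRT7, which was called higher (0.60, adjusted p = 0.0164). Their part in the results was not tested.

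In m5C writing, an enzyme moves a methyl group from S-adenosylmethionine to carbon 5 of a cytosine in RNA. NSUN2 methylates many cytoplasmic tRNAs and some mRNAs and small noncoding RNAs, and TRDMT1 methylates the anticodon loop of a few tRNAs. NOP2 and NSUN5 act on the large ribosomal RNA of the cytoplasm, NSUN4 on mitochondrial ribosomal RNA, NSUN3 on mitochondrial methionine tRNA and NSUN6 on some tRNAs and mRNAs. Of the readers, ALYREF is an adaptor for nuclear mRNA export and YBX1 a Y-box protein that coats cytoplasmic mRNA; both have been described to bind m5C-containing mRNA.

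After TGF-β1, NSUN2 and ALYREF were the members that passed the test, both higher; none was lower. They are 2 of 9 tested members. Of all 17215 tested genes, 38.9% were called in either direction, 20.2% higher and 18.7% lower (edgeR's quasi-likelihood test with an adjusted p under 0.05 after Benjamini-Hochberg correction), so the members' share of higher calls, 22.2%, was near that of all genes. The median log2 fold change of the 9 was 0.12, against -0.01 over all tested genes. Groups did not overlap in normalised CPM for NSUN2, ALYREF and NSUN4, each higher with TGF-β1, where 24.1% of all tested genes were higher without overlap and 23.3% lower. In these bulk libraries, a different number of cells expressing a gene and a different amount of its RNA per cell cannot be told apart.

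**Figure D1:**
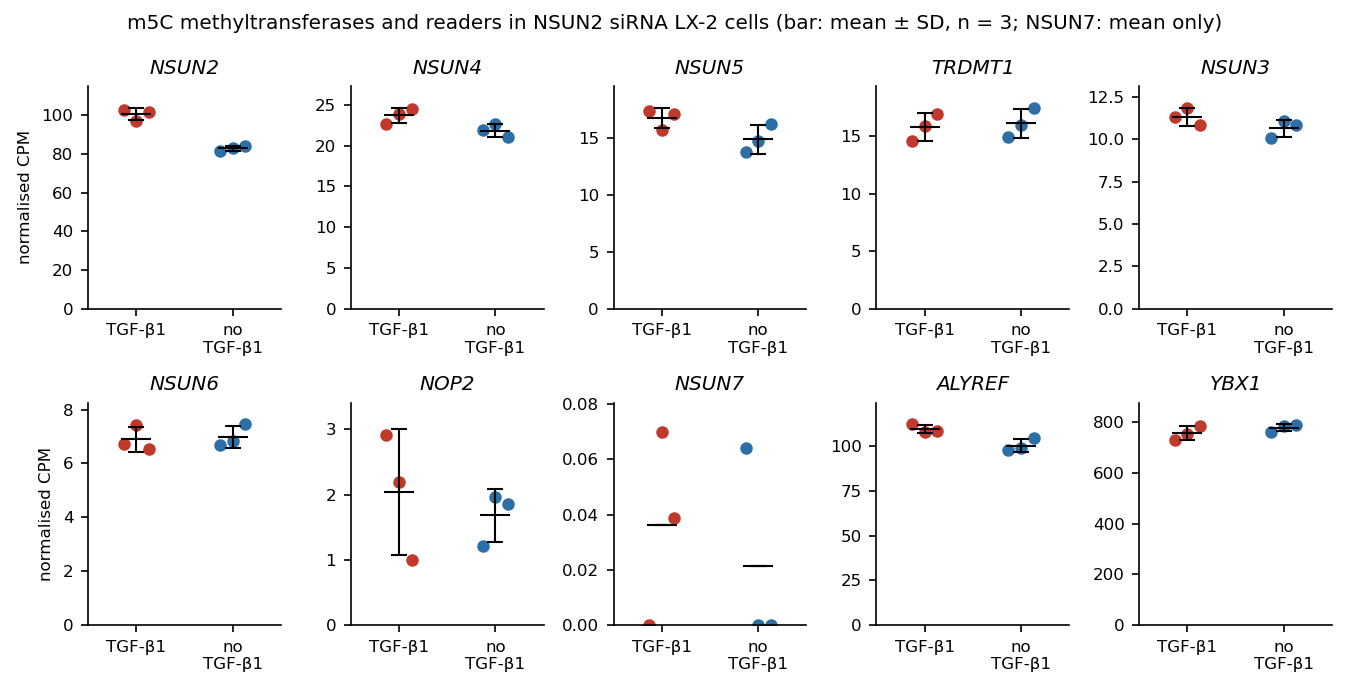
Normalised CPM of the 10 genes in each library, with TGF-β1 left and no TGF-β1 right, on axes that start at 0; bars are the mean ± SD of 3 libraries, except for NSUN7, where only the mean is drawn. The groups are apart for NSUN2, ALYREF and NSUN4, while NOP2 spreads from 1.00 to 2.91 CPM within the TGF-β1 group.

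NSUN2 (ENSG00000037474; hg38 chr5:6599239-6633291, minus strand) rose by a modest amount. It had 102.7, 97.0 and 101.9 CPM with TGF-β1 and 81.4, 82.9 and 84.4 CPM without. The lowest TGF-β1 library lay above the highest untreated library. The log2 fold change was 0.28 ± 0.04 (SE; 95% interval 0.19 to 0.37), a rise of 21.3% (adjusted p = 1.57e-06 by edgeR's quasi-likelihood test with Benjamini-Hochberg adjustment). The call held in all 17 alternative settings, and no other annotated gene shares exonic bases with NSUN2. In every library NSUN2 is the labelled target of the siRNA. A different knockdown between the groups and a response to TGF-β1 therefore cannot be told apart.

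A share within a library does not depend on scaling between libraries. This one does rest on the counts of NOP2 and NSUN5, which are uncertain since both share exonic sequence with other genes. By this measure NSUN2 also made up a larger part of the methyltransferase transcripts with TGF-β1. Its share of the summed deposited FPKM (counts per kilobase of gene length, scaled to library size) of the 8 methyltransferase genes was 57.7%, 56.3% and 57.8% with TGF-β1, and 55.2%, 54.0% and 53.4% without. All 3 TGF-β1 shares were above all 3 untreated ones, a difference of 3.06 percentage points between means of 57.3% ± 0.80 and 54.2% ± 0.91 (SD, n = 3 each; exact permutation p = 0.1, two-sided, the smallest p that 3 against 3 libraries allow).

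The genes whose values ran most like those of NSUN2 over the 6 libraries were ANKRD42, SSH1 and TRIP13. Likeness was the Euclidean distance between log2 CPM values centred per gene, over the 7945 tested genes whose mean was 20 CPM or more. The distances to NSUN2 were 0.0402 for ANKRD42, 0.0406 for SSH1 and 0.0436 for TRIP13. SSH1 encodes a phosphatase of the actin regulator cofilin, and TRIP13 an ATPase of the spindle checkpoint.

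ALYREF (ENSG00000183684; chr17:81887844-81891586, minus strand) had 112.5, 108.0 and 108.8 CPM with TGF-β1 and 97.8, 99.2 and 104.5 CPM without. The groups did not overlap, and the highest untreated library lay closer to the TGF-β1 group than to the other untreated libraries. The log2 fold change was 0.13 ± 0.04 (SE; 95% interval 0.04 to 0.21), a rise of 9.23% (edgeR adjusted p = 0.0151). This call depended on the scaling: with upper-quartile factors the log2 fold change was 0.08 (adjusted p = 0.129), and with library totals alone 0.01 (adjusted p = 0.900). It was also lost without untreated replicate 1 (0.11, adjusted p = 0.0902) and without untreated replicate 2 (0.11, adjusted p = 0.0561). Of the exonic bases of ALYREF, 3.94% lie opposite exons of ANAPC11.

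YBX1 (ENSG00000065978; chr1:42682427-42702349, plus strand), the most abundant member, had 730.2, 754.6 and 784.6 CPM with TGF-β1 and 761.1, 786.8 and 789.0 CPM without. The TGF-β1 libraries were the more spread, and the highest of them lay among the untreated ones. The log2 fold change was -0.04 ± 0.03 (SE; 95% interval -0.10 to 0.02; edgeR adjusted p = 0.288), and the interval holds changes from -6.88% to 1.29%. With upper-quartile factors YBX1 passed the test as lower (-0.09, adjusted p = 0.0193), as it did with library totals alone (-0.16, adjusted p = 2.39e-05).

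Ratios of counts within a library carry no such scaling. The ratio of ALYREF to NSUN2 counts was 1.09 ± 0.02 with TGF-β1 and 1.21 ± 0.02 without, and that of YBX1 to ALYREF counts 6.90 ± 0.37 with TGF-β1 and 7.75 ± 0.19 without (SD, n = 3 each; exact permutation p = 0.1 for each, the smallest possible). In both ratios the groups did not overlap. Each ratio was lower with TGF-β1 in 3 of 3 libraries, so NSUN2 counts were higher relative to those of ALYREF, and ALYREF counts higher relative to those of YBX1.

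**Figure D2:**
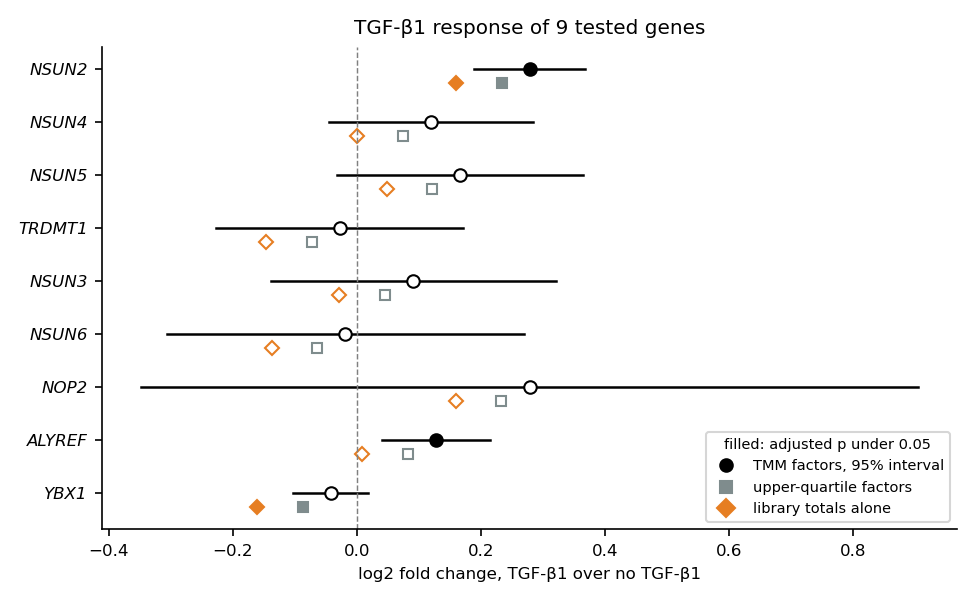
Log2 fold change, TGF-β1 over no TGF-β1, of the 9 tested genes, with 95% intervals for the TMM-scaled edgeR fit (circles) and values with upper-quartile factors (squares) and library totals alone (diamonds); filled symbols have an adjusted p under 0.05. NSUN2 is filled in all 3 fits, ALYREF in the first of them, and YBX1 in the other two, on the lower side.

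The mitochondrial enzymes NSUN4 and NSUN3 did not pass the test, nor did TRDMT1 and NSUN6. NSUN4 had 22.7, 23.9 and 24.5 CPM with TGF-β1 and 21.8, 22.6 and 21.1 CPM without; the groups did not overlap, but the log2 fold change of 0.12 ± 0.08 had a 95% interval of -0.05 to 0.28 (edgeR adjusted p = 0.267). NSUN3 had 10.8 to 11.9 CPM with TGF-β1 and 10.1 to 11.1 CPM without (log2 fold change 0.09 ± 0.11; adjusted p = 0.580). Exons of DHFR2 and of the pseudogene RBBP4P2 lie opposite 8.52% of the exonic bases of NSUN3. The 95% intervals hold changes from -3.09% to 21.7% for NSUN4 and from -9.20% to 24.9% for NSUN3.

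TRDMT1, the tRNA enzyme that resembles the DNA methyltransferases, had 14.6 to 16.9 CPM with TGF-β1 and 14.9 to 17.5 CPM without, with the groups intermixed. Its log2 fold change was -0.03 ± 0.10 (SE; 95% interval -0.23 to 0.17; edgeR adjusted p = 0.860). NSUN6 had 6.53 to 7.43 CPM with TGF-β1 and 6.68 to 7.46 CPM without, again intermixed (log2 fold change -0.02 ± 0.14; 95% interval -0.31 to 0.27; adjusted p = 0.938). The sign of neither value was stable when libraries were left out.

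NSUN7 was at the limit of detection, with 0, 2 and 1 counts with TGF-β1 and 2, 0 and 0 counts without. The group sums of 3 and 2 counts are at or under the floor of 3 counts, which is 0.096 to 0.121 CPM in a library, so no fold change is given. NSUN7 was not tested.

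On the per-length scale of the deposited FPKM, the levels spanned several orders of magnitude. The mean over the 6 libraries was 386.5 FPKM for YBX1, 64.9 FPKM for ALYREF and 16.2 FPKM for NSUN2, followed by 4.50 FPKM for NSUN5 and 2.61 FPKM for NSUN4. NSUN6 at 1.93 FPKM and NSUN3 at 1.90 FPKM came next, then TRDMT1 at 1.47, NOP2 at 0.385 and NSUN7 at 0.0059 FPKM. The places of NOP2 and NSUN5 in this order are uncertain, since both share exonic sequence with other genes. NSUN6 and NSUN3 were the neighbours in this order whose ranges over the 6 libraries overlapped; no other pair of neighbours overlapped. NSUN2, the gene the siRNA is labelled to target, was 3.60 times the level of NSUN5, the next methyltransferase gene as deposited.

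**Figure D3:**
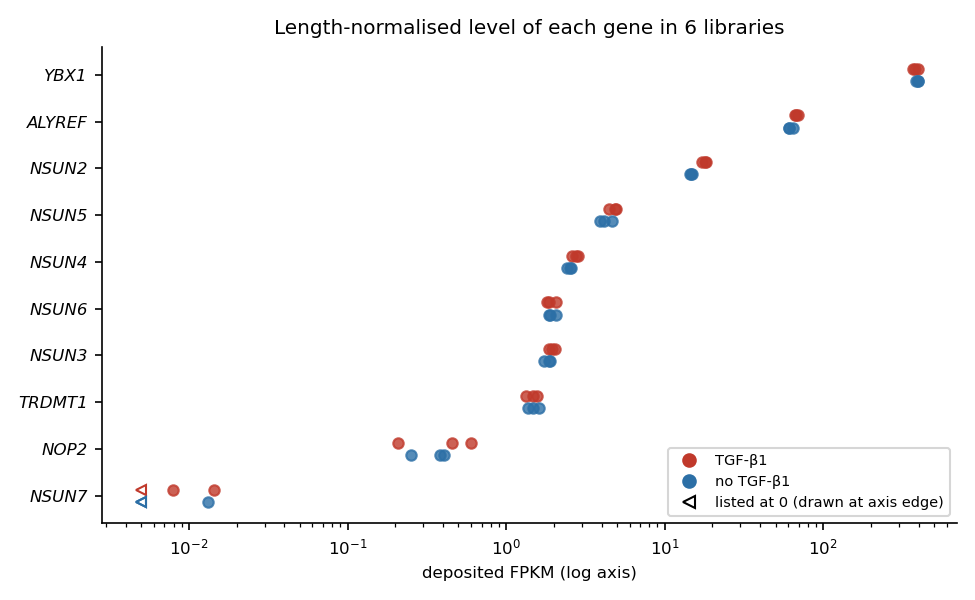
Deposited FPKM of the 10 genes in each library on a log axis, TGF-β1 above no TGF-β1 within each gene; open triangles mark libraries in which NSUN7 is listed at 0, which a log axis cannot show. The order runs from YBX1 at 367.8 to 396.3 FPKM down to NSUN7, and the 2 groups lie close together within each gene compared with the distance between most genes.

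NSUN5 (ENSG00000130305; chr7:73302517-73308867, minus strand) had 17.3, 15.7 and 17.1 CPM with TGF-β1 and 13.8, 14.7 and 16.3 CPM without. The highest untreated library lay above the lowest TGF-β1 library. The log2 fold change was 0.17 ± 0.10 (SE; 95% interval -0.03 to 0.37; edgeR adjusted p = 0.190). The count of NSUN5 is uncertain because the gene shares sequence with the transcribed pseudogenes NSUN5P1 and NSUN5P2. Of its distinct 50-base stretches, 26.2% also occur in another annotated gene: 21.5% occur in NSUN5P2 and 11.0% in NSUN5P1. The stretch of 90 bases below was chosen for the fewest differences, among coding stretches with at least 1 from each copy. Likeness over the whole gene is therefore not shown by this stretch. In hg38 the stretch lies at chr7:73303909-73303998 on the minus strand for NSUN5. For NSUN5P1 it lies at chr7:75416019-75416108 on the plus strand, and for NSUN5P2 at chr7:72948975-72949064 on the minus strand. The capital marks the position at which NSUN5 differs from both pseudogenes, which are identical to each other here.
NSUN5: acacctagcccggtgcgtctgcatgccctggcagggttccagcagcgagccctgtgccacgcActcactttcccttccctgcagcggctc
NSUN5P1: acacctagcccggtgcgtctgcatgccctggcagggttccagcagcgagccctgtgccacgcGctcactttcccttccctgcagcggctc
NSUN5P2: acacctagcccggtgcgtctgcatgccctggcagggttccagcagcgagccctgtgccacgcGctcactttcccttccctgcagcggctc

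A read that does not reach the capital cannot be assigned to any of the 3 from its letters there. One that reaches it can tell NSUN5 from the pseudogenes, but not the pseudogenes from each other. NSUN5P1 had 442, 451 and 406 counts with TGF-β1 and 686, 533 and 499 without, close in number to NSUN5 itself, which had 429, 451 and 443 counts with TGF-β1 and 430, 448 and 456 without. In normalised CPM, NSUN5P1 had 17.9, 15.7 and 15.7 with TGF-β1 and 21.9, 17.5 and 17.8 without, so the groups overlapped. The log2 fold change of -0.22 ± 0.10 did not pass the test (edgeR adjusted p = 0.0752). It passed in 4 of 17 alternatives: with upper-quartile factors (-0.26), with library totals alone (-0.34), without untreated replicate 2 (-0.28) and without TGF-β1 replicate 1 (-0.28). NSUN5P2 had 12, 9 and 3 counts with TGF-β1 and 20, 15 and 11 without. Exons of POM121 lie opposite 71.8% of the exonic bases of NSUN5P2, and the part of this overlap in its counts was not tested. Together the pseudogenes, mostly NSUN5P1, made up 48.0% to 62.1% of the summed counts of the 3 genes. With their counts added to those of NSUN5, the log2 fold change was -0.05 ± 0.07 (adjusted p = 0.662), opposite in sign to that of NSUN5 alone.

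YBX1 also has copies in the genome, processed pseudogenes that retain long stretches of its mRNA. Of its distinct 50-base stretches, 30.8% occur in another annotated gene, most of them in YBX1P1 and YBX1P10. The stretches below, of 90 bases, lie in hg38 at chr1:42696199-42696288 on the plus strand for YBX1, chr14:66013448-66013537 on the minus strand for YBX1P1 and chr9:35971964-35972053 on the minus strand for YBX1P10. Capitals mark the 2 positions at which either copy differs from YBX1. These stretches, too, were chosen for the fewest differences and do not show likeness over the whole gene.
YBX1: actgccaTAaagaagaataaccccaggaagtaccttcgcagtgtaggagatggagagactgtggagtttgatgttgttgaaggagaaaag
YBX1P1: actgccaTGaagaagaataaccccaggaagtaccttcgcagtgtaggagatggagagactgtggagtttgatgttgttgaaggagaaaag
YBX1P10: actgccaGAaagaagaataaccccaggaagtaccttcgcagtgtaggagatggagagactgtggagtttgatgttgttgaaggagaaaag

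In contrast to NSUN5, the copies of YBX1 took up few counts. The 10 pseudogenes in the table, 7 of which had a count, made up 1.78% to 2.31% of the summed counts of YBX1 and its copies. YBX1P1 (log2 fold change -0.18, edgeR adjusted p = 0.327) and YBX1P10 (-0.03, adjusted p = 0.901) were the 2 that could be tested. Summing them with YBX1 left its log2 fold change at -0.04.

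NOP2 (ENSG00000111641; chr12:6556863-6568691, minus strand), which encodes an essential nucleolar rRNA methyltransferase, had 72, 63 and 26 counts with TGF-β1 and 38, 60 and 52 counts without. In CPM these were 2.91, 2.20 and 1.00 with TGF-β1 and 1.22, 1.97 and 1.86 without. The TGF-β1 group held both the highest and the lowest library, with a coefficient of variation of 47.3%, against 24.2% in the untreated group. The log2 fold change of 0.28 ± 0.31 had a 95% interval of -0.35 to 0.90 (edgeR adjusted p = 0.525) and was -0.05 without TGF-β1 replicate 1.

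The exons of NOP2 are shared with another annotated gene. In GENCODE release 29, whose gene positions match the table, AC006064.6 is annotated as a protein-coding gene on the same strand whose exons run through NOP2 and its neighbour CHD4. Its exons cover 2550 of the 4687 exonic bases of NOP2 (54.4%) and all 2424 coding bases of the principal NOP2 transcript. AC006064.6 had 0 counts in all 6 libraries, and 0 of its 8514 exonic bases lie outside NOP2 and CHD4. Of the 2137 exonic bases of NOP2 that AC006064.6 does not cover, 1974 (92.4%) lie outside the principal transcript. The sources used here do not say how reads in shared exons were counted, and the part of this overlap in the NOP2 values was not tested.

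**Figure D4:**
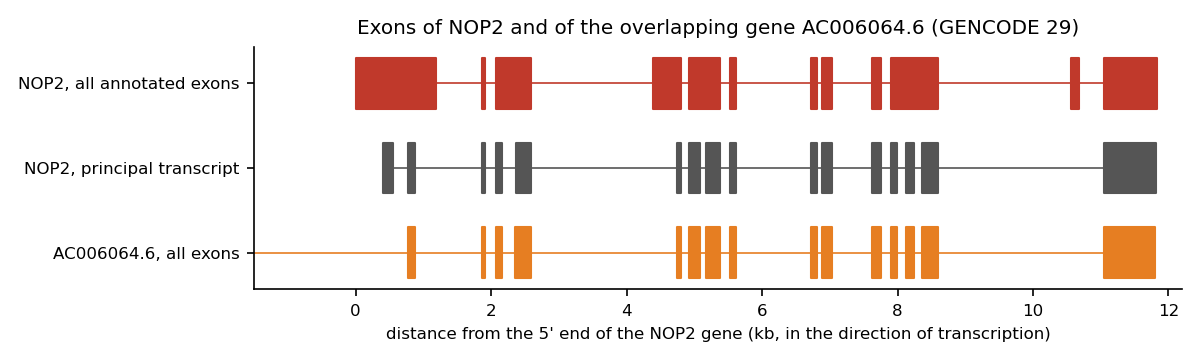
Exons of NOP2 (all annotated transcripts, above, and the principal transcript, middle) and of AC006064.6 (below) in GENCODE release 29, drawn to scale against the distance in kb from the 5′ end of NOP2. Every coding base of the principal NOP2 transcript, 2424 in all, lies in an exon of AC006064.6.

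The wider pathway was described with 9 gene lists, 91 of whose 97 genes were tested. Of these, 24 rose (26.4%, against 20.2% of all tested genes) and 8 fell (8.79%, against 18.7%). In all, 35.2% were called, against 38.9% of all tested genes. With library totals alone, which moves the median of all genes by -0.12, 10 rose and 24 fell, so the split between directions depends on the scaling. In that fit, 2019 of all 17215 tested genes rose and 5354 fell. Counts of each list below with library totals alone are to be read beside these. Among the oxidases of 5-methylcytosine, 1 of 4 rose and none fell, against 20.2% and 18.7% of all tested genes. With upper-quartile factors or library totals alone, 1 fell as well. The gene that rose was TET3, a dioxygenase that oxidises 5-methylcytosine in DNA. TET3 had 60.9 ± 5.61 CPM with TGF-β1 and 36.2 ± 1.62 CPM without (SD, n = 3 each). Its log2 fold change was 0.75 ± 0.06 (edgeR adjusted p = 3.92e-13).

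**Figure D5:**
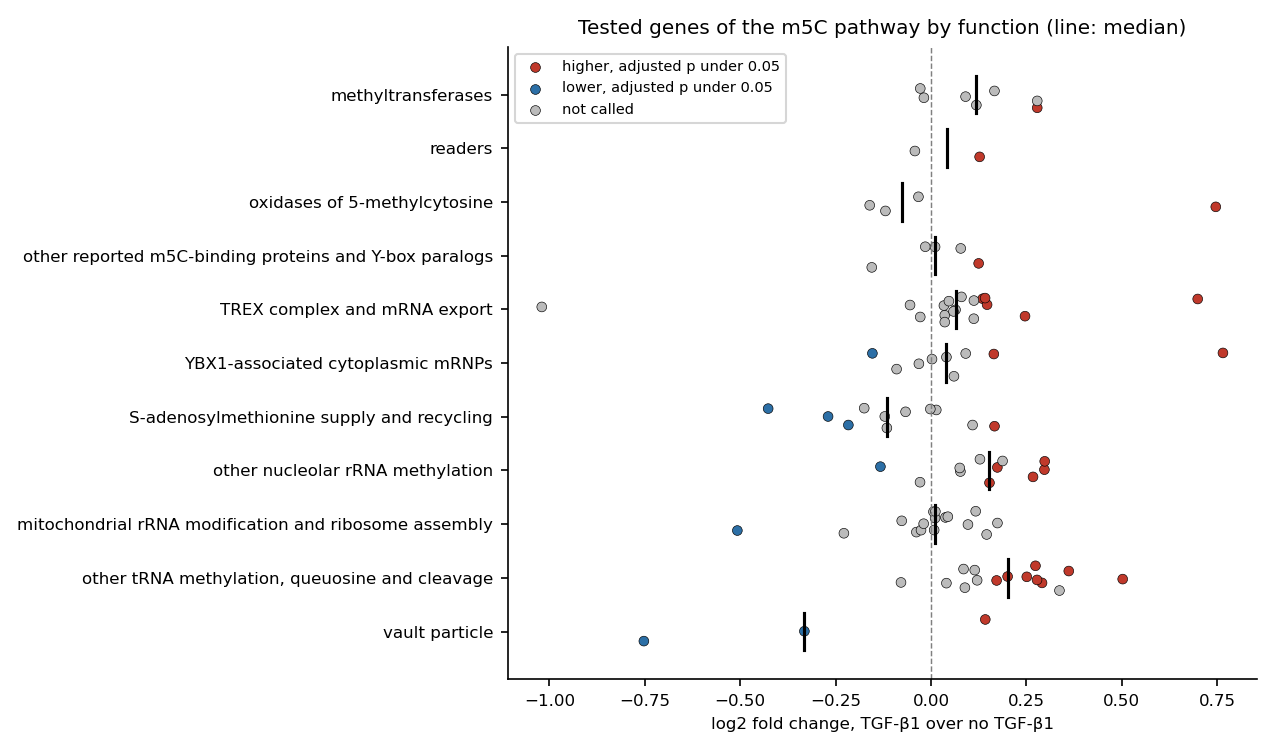
Log2 fold change, TGF-β1 over no TGF-β1, of each tested gene of the m5C pathway by list, with vertical lines at the list medians; red is higher, blue lower and grey not called at an adjusted p of 0.05. The tRNA list has 8 red points of 15 and no blue one, and the S-adenosylmethionine list 3 blue points of 11. Of all tested genes, 20.2% were higher and 18.7% lower.

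Around the writers, 8 of 15 genes of other tRNA methylation, queuosine and tRNA cleavage rose (53.3%, against 20.2% of all tested genes) and none fell, with a median log2 fold change of 0.20. QTRT2, a subunit of the enzyme that inserts queuine into tRNA, had 41.2 ± 2.38 CPM with TGF-β1 and 29.1 ± 0.13 CPM without (0.50, edgeR adjusted p = 5.28e-08). TRMT10C, a subunit of mitochondrial RNase P, rose by a log2 fold change of 0.36 (adjusted p = 0.00654) and WDR4, a partner of the tRNA guanosine methyltransferase METTL1, by 0.29 (adjusted p = 0.000679). With library totals alone, 4 of the 15 rose and 1 fell, and TRMT10C was not called (0.24, adjusted p = 0.0684); its call was also lost in all 3 fits on log2 FPKM and without untreated replicate 2.

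Of 11 genes of nucleolar rRNA methylation, 5 rose (45.5%, against 20.2% of all tested genes) and 1 fell, and the median was 0.15. With library totals alone, 3 rose and 1 fell (median 0.03). NOP58 and NOP56, core proteins of the box C/D small nucleolar ribonucleoproteins, rose by log2 fold changes of 0.30 (edgeR adjusted p = 1.11e-07) and 0.27 (1.78e-08), and DIMT1, an rRNA adenosine methyltransferase, by 0.30 (1.10e-05). The others that rose were FBL, the methyltransferase of box C/D particles (0.17, adjusted p = 0.000256), and BUD23, an rRNA guanosine methyltransferase (0.15, adjusted p = 0.00564). Both calls were lost with library totals alone, and that of BUD23 also with upper-quartile factors, on log2(FPKM + 1) with no filter and without untreated replicate 3. TRMT112, an activator of several methyltransferases, was the gene that fell (-0.13, adjusted p = 0.0108); the call was lost on log2 FPKM, without untreated replicate 3 (-0.12) and without TGF-β1 replicate 1 (-0.07). Of 16 genes of mitochondrial rRNA modification and ribosome assembly, none rose and 1 fell (3 with library totals alone). Of all tested genes, 20.2% rose and 18.7% fell. TFB1M, the gene that fell, a methyltransferase of mitochondrial small-subunit rRNA, had 11.8 ± 1.04 CPM with TGF-β1 and 16.8 ± 1.31 CPM without (-0.51 ± 0.10, adjusted p = 0.000101).

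Of 11 genes that supply S-adenosylmethionine and recycle its product, 3 fell (27.3%, against 18.7% of all tested genes). In this list 1 rose (9.09%, against 20.2%), and the median was -0.12. With upper-quartile factors 5 fell and 1 rose, and with library totals alone 8 fell and none rose. The median of all genes also moved, by -0.04 with upper-quartile factors and by -0.12 with library totals alone. In the latter fit, 5354 of all 17215 tested genes fell and 2019 rose. ADK, which removes adenosine, fell (-0.43, edgeR adjusted p = 4.36e-10), as did MAT2A, the S-adenosylmethionine synthetase of extrahepatic and dividing cells (-0.27, 5.69e-09), and AHCYL2, a protein related to S-adenosylhomocysteine hydrolase (-0.22, 0.00873). MAT2A had 236.9 ± 3.46 CPM with TGF-β1 and 285.5 ± 5.87 CPM without. MTRR, which reactivates methionine synthase, was the gene that rose (0.17, adjusted p = 0.00201), a call lost with library totals alone (0.05). The AHCYL2 call was lost on log2(FPKM + 1) with no filter and without TGF-β1 replicate 2 (-0.16).

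Around the readers, 5 of 17 tested genes of the TREX complex and mRNA export rose (29.4%, against 20.2% of all tested genes). None fell, against 18.7% of all tested genes, and the median was 0.06. NCBP3, which binds the mRNA cap and the export machinery, had 173.2 ± 10.2 CPM with TGF-β1 and 106.7 ± 1.09 CPM without (0.70 ± 0.04, edgeR adjusted p = 2.12e-18). NXT1, a cofactor of the export receptor, rose by 0.25 (adjusted p = 0.00444) and FYTTD1, an export adaptor, by 0.15 (adjusted p = 0.00611) on the log2 scale. The others were DDX39B, an RNA helicase of the complex, and NCBP1, a subunit of the nuclear cap-binding complex. DDX39B shares 30.8% of its exonic bases with other genes on its strand, and its call was lost in 6 of 17 alternatives, among them those without untreated replicate 3, TGF-β1 replicate 1 or TGF-β1 replicate 3. With library totals alone, 1 of the 17 rose and 2 fell, and NXT1 (0.13, adjusted p = 0.150) and FYTTD1 (0.03, adjusted p = 0.652) were not called. FYTTD1 was also not called with upper-quartile factors, on log2 FPKM, without untreated replicate 2 or without TGF-β1 replicate 3.

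Of 9 genes of YBX1-associated cytoplasmic mRNPs, 2 rose (22.2%) and 1 fell (11.1%), against 20.2% and 18.7% of all tested genes. The median was 0.04. With library totals alone, 1 rose and 3 fell. IGF2BP1, an mRNA-binding protein, had 7.90 ± 0.13 CPM with TGF-β1 and 4.65 ± 0.61 CPM without (0.76 ± 0.15, edgeR adjusted p = 6.55e-05); it was not called on log2(FPKM + 1) without a filter (0.30). PABPC1, the poly(A)-binding protein of the cytoplasm, fell (-0.15, adjusted p = 5.27e-05).

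Among 5 tested genes of other reported m5C-binding proteins and Y-box paralogs, 1 rose and none fell, against 20.2% and 18.7% of all tested genes. With library totals alone, none rose and 3 fell. The gene that rose was SRSF2, a splicing factor (log2 fold change 0.12, edgeR adjusted p = 0.0167). Exons of MFSD11 lie opposite 36.7% of its exonic bases, and with upper-quartile factors (0.08, adjusted p = 0.138) or library totals alone (0.01, adjusted p = 0.932) it was not called. It was also not called on log2(FPKM + 1) with no filter, without untreated replicate 2 or without TGF-β1 replicate 1. The vault particle holds small RNAs that NSUN2 is known to methylate. All 3 tested genes of its list were called, 1 higher and 2 lower, against 38.9% of all tested genes called. PARP4 and MVP, proteins of the particle, fell by 0.75 (adjusted p = 1.01e-21) and 0.33 (adjusted p = 1.85e-06) on the log2 scale. TEP1 rose by 0.14 (adjusted p = 0.0226), a call that was lost in 8 of 17 alternatives, with upper-quartile factors and library totals alone and without untreated replicate 1 or TGF-β1 replicate 1 among them. The vault RNA genes themselves were at or near 0 counts and were not tested. NAT10, the gene of the design text, had 68.2 ± 2.28 CPM with TGF-β1 and 66.9 ± 4.84 CPM without and was not called (log2 fold change 0.03 ± 0.05, adjusted p = 0.726).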

How the data were processed

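The deposited counts are the authors' raw counts of reads per gene, in whole numbers; the deposited FPKM values are the authors' too. They equalled the counts over gene length and a library size that was 0.984 to 0.987 times the total with TGF-β1 and 1.07 to 1.08 times it without. The submitters' processing notes name fastp, HISAT2 2.2.1 and build hg38; the sources used here do not give the counting tool, the use of strand or the annotation. All 58735 identifiers matched GENCODE release 29, used for exons and sequences. In each deposited file, 6 further per-sample columns matched no sample here and were not used.

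Groups came from the sample labels. Genes passing filterByExpr (minimum count 10, minimum total 15; 17215 genes) were tested with edgeR 4.0.16 (R 4.3.3; TMM factors, robust glmQLFit and glmQLFTest, two-sided, Benjamini-Hochberg over all tested genes, threshold 0.05, group as the only term, 4 residual degrees of freedom). The biological coefficient of variation was 5.62%. SE is the absolute log2 fold change over the square root of F; intervals are at 95%. Shares and ratios were compared by exact permutation over libraries. Floors of 3 counts cover counting error only. Replicates differed beyond counting noise.

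Named genes were the 10 members, pseudogenes of members, NAT10, up to 3 called genes of 5 CPM or more per list, taken by size of change, and the 3 genes nearest to NSUN2; others were named because a count was 5 or fewer, after their values were seen. Another list gene is counted but not reported here. The members and lists were chosen with earlier results of these data known. In 5 simulated draws of this comparison over 17215 genes, 200 were changed. The test recovered 49.6% of genes changed 1.25-fold and 96.4% of those changed 4-fold, and 6.66% of calls were false. With the real libraries 6697 genes were called, far more than were changed in the draws, so these rates need not hold there.

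Alternatives were DESeq2 size factors, upper-quartile factors and library totals alone in the edgeR test, no filter, a filter of 1 CPM in 3 libraries, DESeq2 1.42.0 (Wald test), limma 3.58.1 with voom, limma on log2 FPKM (pseudocount 1 or 0.1 for genes averaging 0.5 FPKM or more; pseudocount 1 without a filter), the replicate number as a block, pseudogene counts added, and each library left out in turn.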

Additional observations from a re-analysis of the deposited data

How the results depend on the processing

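NSUN2 stayed called and higher under all 17 alternatives (log2 fold change 0.16 to 0.31). ALYREF was not called with upper-quartile factors (0.082) or library totals alone (0.0085) and ran from 0.11 to 0.15 with a library left out; it was lost without untreated replicate 1 or 2. YBX1 became a lower call with upper-quartile factors (-0.087) and library totals alone (-0.16). Members called were thus 1 higher and 1 lower under each of these scalings, and 1 to 2 higher with a library left out. The sign turned, with no call on either side, for NSUN3 (-0.028) and NSUN4 (-2.9e-05) with library totals alone, for NSUN5 with its pseudogenes added (-0.045), and for NAT10 with upper-quartile factors (-0.017) and library totals alone (-0.091). With a library left out, NOP2 ran from -0.053 to 0.61, NSUN6 from -0.074 to 0.026, TRDMT1 from -0.083 to 0.031, YBX1P10 from -0.17 to 0.14 and NAT10 from -0.016 to 0.084. Library totals alone gave 2019 genes higher and 5354 lower, where the TMM fit gave 3471 and 3226, and 10 higher and 24 lower in the lists; the median of all genes moved by -0.12. On log2(FPKM + 1) with no filter, 1978 genes were lower. The cause of these changes was not tested, except that summing adds pseudogene counts and leaving out uses fewer samples. The NSUN2 share differed by 2.67 to 3.56 points with a library left out and by 3.32 points on counts.

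Replicate numbers did not pair the samples: deviations of same-numbered libraries correlated at -0.0049, 0.0111 and -0.0091. With the replicate block, NSUN2 was at 0.28 and ALYREF at 0.13 (edgeR adjusted p = 0.0184), with 3431 genes higher and 3182 lower.

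Counts were low for NSUN7, with 5 in all, and for NOP2, with 26 to 72 per library. The cause was not tested. No siRNA-free library was analysed here, so the size of the NSUN2 knockdown was not estimated.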
